A study of Homo sapiens and Mus musculus with 26 samples.

Results

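MHCC97H cells, a human hepatocellular carcinoma line, carried a short hairpin RNA against METTL1 (shMETTL1-2), and mRNA bound to polyribosomes was set against the input RNA of the same knockdown cells. The comparison rests on 6 of the 26 samples of the series, 3 polysome libraries and 3 input libraries, chosen by their sample titles, and on the 8074 genes listed for all of them. The other groups used here are the 3 polysome and 3 input libraries of control cells (NC), labelled wild type. All 12 were labelled total RNA, from cells grown in DMEM, and the kit named for mRNA was a stranded one. Only the hairpin shMETTL1-2 was used in these libraries, so a change caused by the loss of METTL1 and one caused by that hairpin cannot be told apart. Whether each repeat was its own culture is not in the labels, and the p-values then reflect only how far these libraries differ, which may be technical.

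METTL1 is the catalytic subunit, and WDR4 the partner, of the enzyme that places N7-methylguanosine on a subset of tRNAs. An mRNA under translation carries several ribosomes and sediments with the polysomes, while an mRNA that is stored, repressed or still in the nucleus is found in the input and less on polysomes. Mass on polysomes is also set by length, since a short reading frame holds few ribosomes, and by the start of the mRNA: ribosomal protein mRNAs begin with a pyrimidine tract (the terminal oligopyrimidine, or TOP, motif) through which mTOR signalling controls their entry into polysomes. Values are FPKM (fragments scaled to gene length and to the size of the library), and a difference is log2(FPKM + 1) of the polysome library minus that of the input library with the same repeat number. FPKM are relative to the rest of a library, so a difference says where an mRNA stood among the listed mRNAs, not how many molecules were on ribosomes. The lowest FPKM in the table is 1, and since depth is unknown the values carry no counting interval.

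Input repeat 1 stood apart from the other 2 input libraries. Input repeat 1 of the knockdown cells correlated with the 3 knockdown polysome libraries at 0.972, 0.954 and 0.950 (Pearson r of log2 values across 8074 genes), and with input repeats 2 and 3 at 0.828 and 0.825. Input repeats 2 and 3 were nearly the same profile (r = 0.9985), with an SD over genes of their log2 difference of 0.118, against 1.19 between input repeats 1 and 2. Polysome repeats 2 and 3 were close as well (SD 0.143) and polysome repeat 1 stood at an SD of 0.656 from repeat 2. The median FPKM of the input libraries was 17.2 in repeat 1 and 8.89 and 8.91 in repeats 2 and 3, and of the polysome libraries 16.5, 14.4 and 14.3. FTL, the ferritin light chain, took 3.78% of the summed FPKM of input repeat 1 against 0.289% and 0.282% of input repeats 2 and 3. The control input libraries split the same way, with median FPKM of 17.5, 9.08 and 9.24 in repeats 1, 2 and 3. FTL took 4.73%, 0.354% and 0.345% of their summed FPKM. Repeat 1 is therefore given apart from repeats 2 and 3, and the part of these library differences in the results was not tested. Of the markers used to check the cell type, 4 of 13 hepatocyte markers were listed (among them HNF4A, KRT8 and KRT18, while ALB and the other 8 were not), with a summed FPKM of 2983 to 20027 in the input and 3834 to 7965 in the polysome libraries. Of leukocyte markers 1 of 9 was listed (CD68, at 45.5 to 89.1 FPKM in input and 80.9 to 101 FPKM on polysomes), of fibroblast markers 0 of 8 and of endothelial markers 0 of 7.

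METTL1 itself was listed at 11.9, 18.3 and 15.3 FPKM in input repeats 1, 2 and 3 of the knockdown cells and at 47.9, 39.3 and 36.03 FPKM in those of control cells. Its polysome values were 8.29, 22.9 and 25.6 FPKM in knockdown and 45.3, 43.8 and 38.2 FPKM in control cells. Every knockdown library thus lay below every control library, with input means of 15.2 ± 3.23 FPKM in knockdown and 41.1 ± 6.15 FPKM in control cells (SD, n = 3). Polysome minus input, METTL1 stood at -0.47, 0.31 and 0.70 in the 3 knockdown repeats, below 0 in repeat 1 and above 0 in the other two. Relative to its input, polysome-bound METTL1 had no direction common to the repeats, and its mean of 0.18 turned negative when the libraries were set to equal medians (-0.23), with quantile normalization (-0.16) and without polysome repeat 2 (-0.02) or 3 (-0.10).

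Whether an mRNA was rich or poor on polysomes in the knockdown cells depended on the repeat. Polysome minus input differences of repeats 2 and 3 correlated at 0.978 over genes, whereas those of repeat 1 correlated with them at -0.25 and -0.18; these are descriptions over genes, which share libraries and are not independent. The difference was above 0 in all 3 repeats for 2650 genes (32.8%) and below 0 in all 3 for 636 (7.88%). In 3172 genes (39.3%) the mRNA was below 0 in repeat 1 and above 0 in repeats 2 and 3, and in 1176 genes (14.6%) the reverse held. Differences of at least 1 (a doubling of FPKM + 1) were reached upward by 3, 2277 and 2175 genes in repeats 1, 2 and 3, and downward by 305, 282 and 291 genes. The median over all genes was 0.01, 0.53 and 0.52, so a typical listed gene lay above 0 in repeats 2 and 3 and near 0 in repeat 1.

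When limma was fitted to the 6 knockdown libraries, 0 of 8074 genes (0%) met an adjusted p of 0.05. An unadjusted p below 0.05 was reached by 382 (4.73%), of which 263 were higher (3.26%) and 119 lower (1.47%) on polysomes. All 3 polysome libraries lay above all 3 input libraries in 689 genes (8.53%) and below them in 222 genes (2.75%). In repeats 2 and 3 alone these numbers were 5714 (70.8%) and 1724 (21.4%), and in the 3 control repeats 1507 (18.7%) and 243 (3.01%). Leaving out input repeat 1 alone gave 4715 limma calls, 3911 higher and 804 lower, and leaving out repeat 1 of both kinds gave 6890, 5396 higher and 1494 lower. Of those 6890 genes, 3953 had the other sign in repeat 1 and 2933 the same sign. Repeats 2 and 3 differed little from each other, and whether they were separate preparations is not given in the sources used here, so the spread in fits that rest on them, and their p, may be too small.

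Factors of ribosome assembly, tRNA processing, splicing and DNA repair were among the 12 mRNAs poorest on polysomes relative to their spread. These 12 had the smallest p of the genes whose 2 kinds of library did not overlap and whose FPKM averaged 5 or more, and limma gave each an adjusted p of 0.550. PAK1IP1, a factor of large ribosomal subunit assembly, was at 26.3, 41.6 and 43.1 FPKM in input and at 12.6, 15.4 and 13.99 FPKM on polysomes. Each polysome value lay below every input value, and the differences of -1.01, -1.38 and -1.56 averaged -1.31 (SE 0.28). The means were 36.99 ± 9.32 FPKM in input and 13.99 ± 1.42 FPKM on polysomes (SD, n = 3). KRR1, which acts in small subunit assembly, was at 10.1, 8.95 and 9.62 FPKM in input and 4.24, 3.82 and 3.65 FPKM on polysomes, a gap of like size in each repeat (-1.09, -1.05 and -1.19). TRMT10C, part of the mitochondrial RNase P that processes tRNA ends, was at 17.9, 24.1 and 22.9 FPKM in input and 7.15, 9.51 and 10.04 FPKM on polysomes, again without an outlying repeat (differences of -1.21, -1.25 and -1.11). RAD51AP1, a DNA repair factor, was at 15.2, 20.5 and 20.9 FPKM in input and 7.43, 8.09 and 6.66 FPKM on polysomes. In these 4 genes repeat 1 had the same direction as repeats 2 and 3, with differences from -1.21 (TRMT10C) to -0.95 (RAD51AP1). PAK1IP1 lies on chromosome 6 from 10690865 to 10709782, KRR1 on chromosome 12 from 75490863 to 75511609, TRMT10C on chromosome 3 from 101561868 to 101566446 and RAD51AP1 on chromosome 12 from 4538890 to 4560047 (RefSeq, GRCh38.p14).

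Proteins of splicing, calcium transport and protein targeting were also part of this set. SLU7, needed for the second step of splicing, was at 8.49, 22.7 and 24.1 FPKM in input and 3.10, 5.52 and 5.13 FPKM on polysomes. Input repeat 1 was the low input library and polysome repeat 1 the low polysome library, and the differences were -1.21, -1.86 and -2.03. ATP2B1, a calcium pump of the plasma membrane, had the same form, at 12.4, 31.02 and 35.5 FPKM in input and 5.67, 7.91 and 7.87 FPKM on polysomes. SRP72, a protein of the signal recognition particle, was at 22.2, 39.8 and 40.9 FPKM in input and 11.8, 14.8 and 14.8 FPKM on polysomes and SMAP1, which activates the GTP hydrolysis of ARF proteins, at 14.8, 27.9 and 28.5 FPKM in input and 9.67, 9.08 and 7.82 FPKM on polysomes. PHF14, a PHD finger protein, the sulfatase ARSJ and the adaptor CRK were further members, with mean differences of -1.19, -0.91 and -0.85. SMAP1, ARSJ and CRK had the repeat 1 differences nearest to 0, at -0.57, -0.57 and -0.45.

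The 12 mRNAs richest on polysomes by the same rule (limma adjusted p = 0.550 for each) coded for proteins of varied function, and in all of them repeat 1 gave the smallest difference. CES1, a carboxylesterase of hepatocytes, was at 191, 171 and 174 FPKM in input and 261, 368 and 376 FPKM on polysomes (mean difference 0.89, SE 0.24). Its input values were close together and the polysome value of repeat 1 lay between input and the other polysome libraries. FURIN, the protease that matures many secreted precursors, was at 8.83, 8.73 and 7.83 FPKM in input and 13.1, 16.3 and 19.03 FPKM on polysomes, with the largest repeat 1 difference of the 12 at 0.52. ESAM, an adhesion molecule of the immunoglobulin family, was at 32.9, 15.1 and 14.4 FPKM in input and 44.1, 47.3 and 51.98 FPKM on polysomes. It had the largest mean difference of the 12, 1.26, and its input values of repeats 2 and 3 were below that of repeat 1. ALYREF, the adaptor that hands mRNA to the export machinery, was at 273, 192 and 185 FPKM in input and 341, 419 and 420.5 FPKM on polysomes and the splicing factor SRSF9 at 191, 92.6 and 98.7 FPKM in input and 219, 284 and 285 FPKM on polysomes. CSNK2B, the regulatory subunit of casein kinase 2, was at 162, 112 and 112 FPKM in input and 182, 288 and 275 FPKM on polysomes. The ubiquitin ligase TRIM8, NIPSNAP1 of mitochondria, TRNP1, RAC2, the actin capping subunit CAPZB and the antizyme OAZ2 had mean differences from 0.80 (NIPSNAP1) to 1.20 (TRIM8), and repeat 1 differences from 0.18 (RAC2) to 0.37 (OAZ2). CES1 lies on chromosome 16 from 55802851 to 55833096, FURIN on chromosome 15 from 90868588 to 90883457 and ESAM on chromosome 11 from 124753126 to 124762290 (RefSeq, GRCh38.p14).

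EGFR, CCNA2 and VEGFA, genes of growth factor signalling, the cell cycle and angiogenesis, split by repeat. EGFR was at 5.70, 1.59 and 1.72 FPKM in input and 3.09, 3.43 and 3.39 FPKM on polysomes, so the polysome libraries were close together and input repeat 1 was the high input library. The difference was -0.71, 0.77 and 0.69. CCNA2, cyclin A2, was at 27.3, 9.77 and 9.33 FPKM in input and 19.1, 15.3 and 14.9 FPKM on polysomes, with differences of -0.49, 0.60 and 0.62. VEGFA was at 12.8, 1.55 and 1.53 FPKM in input and 12.1, 6.01 and 7.05 FPKM on polysomes, so the 2 libraries of repeat 1 were close together and both above the rest. WDR4 ran against these 3 genes, at 9.41, 23.3 and 20.2 FPKM in input and 18.4, 17.8 and 18.5 FPKM on polysomes. Its polysome values were close together, and the sign of the difference, 0.90, -0.37 and -0.12, followed the input. In the limma fit the adjusted p were 0.717 for EGFR, 0.757 for CCNA2, 0.550 for VEGFA and 0.834 for WDR4. With equal medians EGFR stood at -0.15, CCNA2 at -0.16 and WDR4 at -0.27.

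Cytosolic ribosomal protein mRNAs, the best known TOP mRNAs, were poor on polysomes in repeats 2 and 3 and near 0 in repeat 1. The median over the 50 listed genes of the large subunit was -0.10, -0.98 and -0.95 in repeats 1, 2 and 3, and over the 33 of the small subunit -0.17, -1.13 and -1.24, where all genes had 0.01, 0.53 and 0.52. Above 0 were 17, 11 and 11 genes of the large and 8, 5 and 5 of the small subunit. RPL35 was at 2003, 20001 and 19021 FPKM in input and 2007, 5172 and 5630.5 FPKM on polysomes, and RPS10 at 1067, 10356 and 9890.3 FPKM in input and 1113, 2689.6 and 2454 FPKM on polysomes. Input repeats 2 and 3 were the high libraries for both, and in repeat 1 the 2 kinds of library were level. RPSA, the laminin receptor and small subunit protein, was lower in each repeat, at 1314, 2968 and 3085 FPKM in input and 825, 966 and 947 FPKM on polysomes (-0.67, -1.62 and -1.70), and RPS19 differed by -0.13, -1.68 and -1.71. RPL23, at 595, 1117 and 1110.1 FPKM in input and 569, 392 and 351 FPKM on polysomes, and RPL37, at 321, 291 and 287 FPKM in input and 252, 112 and 95.3 FPKM on polysomes, had the smallest p of the large subunit list. Polysome and input libraries did not overlap, with polysomes lower, in 9 of the 83 ribosomal protein genes (10.8%, against 2.75% of all genes). Polysomes were all higher in 0 of them (against 8.53% of all genes). No ribosomal protein gene passed in limma, and 5 had an unadjusted p below 0.05, all lower. Many ribosomal protein genes have processed pseudogenes of near-identical sequence, so their FPKM are uncertain where counting split reads.

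The values spread widely within the group, and 16 of the 83 genes lay above 0 in repeat 2 and as many in repeat 3. RPL41, which codes for the smallest ribosomal protein, was at 3674, 773 and 816 FPKM in input and 2130.2, 2677 and 2465 FPKM on polysomes, so input repeat 1 was the highest library and input repeats 2 and 3 the lowest. Its difference of -0.79, 1.79 and 1.59 ran opposite to that of RPL35 in repeats 2 and 3 (0.0029, -1.95 and -1.76). RPS12 was at 1000.4, 398 and 446 FPKM in input and 662, 884 and 859.6 FPKM on polysomes and RPL39 at 2317, 1461 and 1477 FPKM in input and 1505, 2529 and 2314 FPKM on polysomes. Input repeats 2 and 3 were the lowest libraries of both. In repeat 1 the polysome library was below the input library for RPL41, RPS12 and RPL39, while RPL35 and RPS10 were at 0.0029 and 0.06. The starts of the 3 lowest and 3 highest ribosomal protein genes by the mean of repeats 2 and 3 are shown to set the TOP motif beside the values. They were chosen from these values among genes with a single annotated start used here, paralogs such as RPL39L and RPL26L1 left out. Each line gives 5 bases before and 25 bases from the annotated start (RefSeq, GRCh38.p14), with the tract in capitals, which is a C followed by at least 4 further bases that are each C or T, beginning within 5 bases of the start on the transcribed strand.
RPS10: tCCTTCCTTTCCagccccggtaccggaccc
RPL35: aCTTCCTCTTTCCCTCggagcgggcggcgg
RPL31: gcgCTCTTCCTTTCCaacttggacgctgca
RPL39: agCTTCCCTCCTCTTCCTTTCTCCgccatc
RPS12: gaggCCTCTTTCCCTgccgccgccgagtcg
RPL41: CCTTTCTCTCggccttagcgccattttttt
The first 3 are those poor on polysomes in repeats 2 and 3 and the last 3 those rich on them, and a tract was found in all 6. RPS10 is shown from chr6:34426045-34426074 on the minus strand, RPL35 from chr9:124861933-124861962 on the minus strand, RPL31 from chr2:101002284-101002313 on the plus strand, RPL39 from chrX:119791606-119791635 on the minus strand, RPS12 from chr6:132814564-132814593 on the plus strand and RPL41 from chr12:56116628-56116657 on the plus strand. Tracts ran for 10 to 22 bases, the longest in RPL39. Each began before the annotated start, from position -5 (RPL41) to -1 (RPS12), so these lengths include bases outside the annotated mRNA. Bases farther than 5 before the start were not counted. Such a tract was found in 48 of 56 ribosomal protein genes with a single annotated start (85.7%), in 12 of 13 other mRNAs listed for a TOP tract (92.3%), in 22.6% of the 4734 listed genes with a single start, and in 21.1% of all 35116 starts of the table. Listed genes with a tract had medians of 0.0018, 0.50 and 0.49 in repeats 1, 2 and 3, and those without one 0.0024, 0.53 and 0.52. Without the ribosomal protein genes the medians with a tract were 0.01, 0.54 and 0.54.

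For the remaining lists, medians are also given relative to the median of all genes in the same repeat, since setting the 6 libraries to equal medians lowered each mean difference by 0.40 and changed the sign of 16 of 26 list medians. In limma 0 members of any list passed. Other mRNAs known for a TOP tract, among them elongation factors, EIF3 subunits and PABPC1, had a median of -0.20, 0.48 and 0.49 over 22 genes, which was -0.21, -0.05 and -0.03 from that of all genes. The list was split, with 7, 14 and 14 of its members above 0 in repeats 1, 2 and 3. EEF1D, an elongation factor subunit, and RACK1, a protein of the small ribosomal subunit, were low in repeats 2 and 3, at 0.41, -1.39 and -1.29 and at 0.20, -1.25 and -1.23, and are named after their values were seen. The 2 members named by rule were on the high side. EIF3L was at 96.7, 46.5 and 47.5 FPKM in input and 90.5, 99.7 and 95.3 FPKM on polysomes and CCNI, an atypical cyclin, at 75.5, 36.6 and 37.98 FPKM in input and 72.7, 79.98 and 72.5 FPKM on polysomes. Genes with EIF symbols (initiation factors and the EIF2AK kinases) had medians -0.09, 0.02 and -0.03 from that of all genes, over 51 genes. Polysome libraries were all higher in 4 of them (7.84%, against 8.53% of all genes) and all lower in 4 (7.84%, against 2.75%). EIF5, which triggers GTP hydrolysis at the start codon, was among the lower ones, at 32.0, 46.99 and 47.5 FPKM in input and 18.9, 24.9 and 22.9 FPKM on polysomes (-0.73, -0.89 and -1.02), and so was the kinase EIF2AK4, which senses uncharged tRNA (-0.26, -1.24 and -1.24).

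mRNAs under translational control by upstream reading frames, such as ATF4, had a median of -0.08, 1.05 and 1.15 over 17 genes, -0.09, 0.52 and 0.63 from all genes. ATF4, the effector of the integrated stress response, was at 241, 126 and 124 FPKM in input and 199, 262 and 271 FPKM on polysomes, below its input in repeat 1 and above it in repeats 2 and 3. CEBPB, a transcription factor made in isoforms from several start codons, was at 75.8, 43.1 and 43.9 FPKM in input and 87.6, 71.6 and 89.9 FPKM on polysomes (0.21, 0.72 and 1.02). The iron-regulated mRNAs, whose iron-responsive element binds iron regulatory proteins, had the widest split between repeats of any list, with a median of -0.73, 1.46 and 1.30 over 7 genes. FTL, the ferritin light chain, was at 20529.7, 2379 and 2320.2 FPKM in input and 4732, 9801 and 10183 FPKM on polysomes, and FTH1, the heavy chain, at 6119, 382 and 385 FPKM in input and 1629.6, 2434 and 2339 FPKM on polysomes. Both were at their highest in input repeat 1 and at their lowest in input repeats 2 and 3. FTL and FTH1 were added here after their values were seen. By the rule for named genes the list gave the iron transporter SLC11A2 (-0.26, 1.46 and 1.30). Immediate early and short-lived transcription factor mRNAs stood at -0.09, 0.56 and 0.69 from all genes over 26 members. JUND was at 109, 63.9 and 64.3 FPKM in input and 123, 139 and 171 FPKM on polysomes, and MAFK at 10.2, 5.98 and 4.52 FPKM in input and 13.8, 13.1 and 14.4 FPKM on polysomes, both without overlap. Polysomes were all higher than input in 5 members (19.2%, against 8.53% of all genes).

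Among genes of RNA processing and chromatin, hnRNP mRNAs were -0.28, 0.92 and 0.86 from all genes over 20 members, and SR proteins with the CLK kinases -0.35, 0.42 and 0.32 over 23. Both lists were below the median of all genes in repeat 1 and above it in repeats 2 and 3. HNRNPUL1 was at 212, 88.8 and 83.8 FPKM in input and 223, 269 and 300.5 FPKM on polysomes, HNRNPL at 262, 133 and 133 FPKM in input and 273, 269 and 279 FPKM on polysomes, and SRSF2 at 185, 45.04 and 42.4 FPKM in input and 166, 209.8 and 204 FPKM on polysomes. For SRSF2 the 3 polysome values and input repeat 1 were alike, and input repeats 2 and 3 low. Zinc finger ZNF genes, mostly transcriptional repressors, were -0.06, -0.17 and -0.15 from all genes over 153 members, and chromatin regulators -0.10, -0.32 and -0.24 over 45. ZNF580 (0.12, 1.16 and 1.26) and ZNF66 (-0.69, -1.29 and -1.19) went in opposite directions, each the same way in every repeat. SMARCC1, a core subunit of the SWI/SNF remodelling complex, was at 22.4, 25.9 and 25.4 FPKM in input and 16.1, 13.8 and 13.6 FPKM on polysomes, and BPTF of the NURF complex at 3.62, 5.39 and 5.96 FPKM in input and 1.80, 2.92 and 2.63 FPKM on polysomes. Both were lower on polysomes in each repeat, but the list as a whole was not one-sided. Of the 45 chromatin regulators, 4 had all polysome libraries lower (8.89%, against 2.75% of all genes) and 5 had all of them higher (11.1%, against 8.53%).

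Solute carriers, receptor tyrosine kinases and matrix proteins had list medians above 0 in repeat 1 as well as in repeats 2 and 3. So had glycolytic enzymes (0.25, 0.32 and 0.40) and actins, tubulins and keratins with their partners (0.13, 0.52 and 0.58). The same held for cholesterol synthesis (0.12, 0.30 and 0.33) and, barely in repeat 1, for proteasome subunits (0.0026, 0.11 and 0.13). Solute carriers had a median of 0.20, 0.49 and 0.47 over 145 genes, with 100, 116 and 113 above 0. In 73 of the 145 all 3 repeats were above 0 and in 4 all were below, where of all genes 32.8% and 7.88% were. Receptor tyrosine kinases and their partners had a median of 0.23, 0.29 and 0.18 over 25 genes and matrix and adhesion proteins 0.17, 0.49 and 0.51 over 27. Relative to all genes solute carriers were at 0.19, -0.04 and -0.05, the receptors at 0.22, -0.24 and -0.34 and the matrix proteins at 0.16, -0.04 and -0.0048. The 3 lists thus stood above the typical gene in repeat 1. In repeats 2 and 3 the receptors stood below it, while solute carriers and matrix proteins were near it. EPHB4, an ephrin receptor, was at 9.86, 8.86 and 9.34 FPKM in input and 13.4, 16.6 and 17.6 FPKM on polysomes, and LRP5, a WNT co-receptor, at 64.2, 62.3 and 62.99 FPKM in input and 73.8, 88.6 and 103 FPKM on polysomes. The heparan sulfate proteoglycan SDC4, at 38.7, 35.5 and 38.05 FPKM in input and 52.2, 47.6 and 49.2 FPKM on polysomes, had nearly the same difference in each repeat (0.42, 0.41 and 0.36), and a mean of -0.0054 with equal medians. The hyaluronan receptor CD44 differed by 0.10, 1.42 and 1.43. SLC25A5, the adenine nucleotide carrier of mitochondria, was at 814, 422 and 431 FPKM in input and 968, 1092 and 1072 FPKM on polysomes, while SLC4A7, a bicarbonate carrier, was at 3.12, 13.4 and 14.1 FPKM in input and 1.66, 2.00 and 2.06 FPKM on polysomes and had the lowest difference of the carriers in repeats 2 and 3, but not in repeat 1. Secreted liver proteins had 10 listed members with a median of -0.09, 0.68 and 0.67, among them RBP4, the retinol carrier (0.08, 1.74 and 1.53), and HABP2, a plasma protease (-0.13, 1.74 and 1.75).

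Chaperones and the translocation machinery of the endoplasmic reticulum were -0.22, 0.33 and 0.32 from all genes over 48 members, and cytosolic chaperones -0.25, 0.27 and 0.19 over 29. PDIA4, a disulfide isomerase, was at 85.03, 36.5 and 37.0 FPKM in input and 102, 92.2 and 98.1 FPKM on polysomes. HSP90AA1, the stress-inducible cytosolic HSP90, had the lowest mean difference of its list: it was at 413, 1323 and 1372 FPKM in input and 159, 300.5 and 285 FPKM on polysomes, without overlap (-1.37, -2.13 and -2.26). The chaperonin subunit CCT5 stood at -0.01, 0.88 and 0.78. Nuclear-encoded subunits of oxidative phosphorylation were at -0.12, -0.07 and -0.14 over 79 genes, which is -0.13, -0.60 and -0.66 from all genes and, after the ribosomal proteins, the lowest list in repeats 2 and 3. Its members with the smallest p nevertheless lay above 0: SDHC of complex II was at 29.4, 9.90 and 9.60 FPKM in input and 33.96, 40.2 and 38.5 FPKM on polysomes, and ATP5F1B of the ATP synthase at 491, 369 and 345 FPKM in input and 577, 719.7 and 679 FPKM on polysomes. Mitochondrial ribosomal proteins were -0.03, -0.03 and -0.07 from all genes over 76 members, with the examples MRPL16 (0.01, 1.28 and 1.18) and MRPL37 (0.43, 1.59 and 1.54). Polysomes were all higher in 8 of them (10.5%, against 8.53% of all genes) and all lower in 0 (against 2.75%). Proteasome subunits were -0.01, -0.43 and -0.39 from all genes over 36 members. PSMA4, of the core particle, was at 106, 133 and 142 FPKM in input and 64.6, 84.5 and 79.2 FPKM on polysomes, lower in each repeat, and PSMD1, of the regulatory particle, differed by -0.93, -1.17 and -1.26.

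Glycolytic enzymes had a median of 0.25, 0.32 and 0.40 over 19 genes, which was 0.24, -0.21 and -0.12 from that of all genes and so below the typical gene in repeats 2 and 3. Polysomes were all higher than input in 5 of them (26.3%, against 8.53% of all genes) and all lower in 0 (against 2.75%). The glucose transporter SLC2A1 was at 22.8, 5.86 and 6.84 FPKM in input and 29.1, 21.1 and 19.1 FPKM on polysomes, and LDHB, a lactate dehydrogenase chain, differed by -0.37, 2.04 and 1.91. Genes of G2 and M phase stood at -0.51, 0.17 and 0.11 from all genes over 37 members, the second lowest list median in repeat 1. TOP2A, the mitotic topoisomerase, was at 16.9, 79.2 and 85.4 FPKM in input and 5.50, 21.03 and 21.4 FPKM on polysomes, lower in every repeat although input repeat 1 lay below polysome repeats 2 and 3, while the kinesin KIF20A differed by -0.18, 1.33 and 1.34. S phase and replication genes were -0.03, 0.04 and -0.09 from all genes over 45 members, with CHAF1B of the chromatin assembly factor at 0.21, 0.73 and 1.21 and the clamp loader subunit RFC5 at -0.03, 1.63 and 1.54. Actins, tubulins, keratins and their partners were 0.12, -0.01 and 0.06 from all genes over 31 members. ACTG1, cytoplasmic actin, was at 1252, 547 and 526 FPKM in input and 1593, 1326 and 1291 FPKM on polysomes, and the myosin light chain MYL12A differed by -0.28, 1.66 and 1.64. Genes of cholesterol synthesis (23) and selenoproteins (15) completed the lists. The first were 0.11, -0.23 and -0.19 from all genes, with IDI1 at -0.41, 2.14 and 1.95 and SQLE at -0.28, 1.71 and 1.66. The second were -0.06, 0.21 and 0.28 from all genes, with SEPHS2 at 0.21, 0.87 and 0.92 and TXNRD1, a thioredoxin reductase, at -0.29, 1.504 and 1.42.

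A further set of genes was picked after the values were seen, for the largest mean difference of repeats 2 and 3 with the other sign in repeat 1 (FPKM averaging 5 or more), and is described without a test. DKK1, a secreted WNT antagonist, was at 54.8, 4.88 and 4.05 FPKM in input and 40.1, 98.4 and 88.4 FPKM on polysomes (-0.44, 4.08 and 4.15). MYC, a transcription factor with a short-lived mRNA, was at 78.8, 1.63 and 1.72 FPKM in input and 77.9, 28.4 and 31.5 FPKM on polysomes, so that the 2 libraries of repeat 1 were level and input repeats 2 and 3 were near the lowest FPKM of the table. YBX1, an mRNA-binding protein, was at 338, 26.3 and 25.04 FPKM in input and 328, 304 and 316 FPKM on polysomes, and PCNA, the replication clamp, at 229, 20.6 and 20.1 FPKM in input and 212, 170.5 and 161 FPKM on polysomes. In both, input repeats 2 and 3 were the lowest libraries. CDK2AP1, MGST1, CKS2, CAP1, UBE2E1 and C12orf75 also had their lowest values in input repeats 2 and 3, with differences in repeat 2 from 2.80 (CAP1) to 3.54 (CDK2AP1). In the opposite direction, ISG15, an interferon-induced ubiquitin-like protein, was at 51.9, 404 and 476 FPKM in input and 63.7, 93.01 and 109 FPKM on polysomes, and NAA38 at 91.7, 733 and 774 FPKM in input and 93.8, 164 and 174 FPKM on polysomes. TUBB6, a beta tubulin, was at 2.57, 53.4 and 51.6 FPKM in input and 3.20, 14.8 and 14.5 FPKM on polysomes, low in both libraries of repeat 1. CYBA, a subunit of NADPH oxidase, differed by 0.40, -1.93 and -1.78 and ELOB, an elongin, by 0.07, -1.81 and -1.80.

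Genomic span, the distance from the first to the last base of the gene, separated the repeats as well. Over 8068 genes with a RefSeq span, Spearman's rho of the difference with span was -0.23, 0.09 and 0.07 in knockdown repeats 1, 2 and 3, given as a description over genes of the same libraries. In control cells rho was 0.29, 0.30 and 0.29. The quintile of shortest genes had medians of 0.11, 0.35 and 0.39 in knockdown and -0.04, 0.03 and 0.02 in control cells. The quintile of longest genes had medians of -0.21, 0.60 and 0.56 in knockdown and 0.10, 0.99 and 0.95 in control cells. The quintile of longest span was thus poorer on polysomes than that of shortest span in knockdown repeat 1. It was the richer in knockdown repeats 2 and 3 and in each control repeat. Span takes in introns, so it is not the length of the mRNA or of its reading frame. With the mean level of a gene rho was 0.23, -0.03 and -0.0043 in knockdown cells. Genes with pseudogenes named after them in RefSeq, ribosomal proteins left out, had medians of -0.12, 0.75 and 0.70 for 1 pseudogene, -0.25, 0.87 and 0.84 for 2 to 3, -0.20, 0.76 and 0.66 for 4 to 9 and -0.21, 0.64 and 0.59 for 10 or more. Genes with none had 0.06, 0.49 and 0.48. The medians were farthest from those of genes with none at 2 to 3 pseudogenes and were nearer to them with more.

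Whether polysome against input differed between knockdown and control cells was tested as the interaction of knockdown and library kind over all 12 libraries. In limma 0 of 8074 genes (0%) met an adjusted p of 0.05, and 336 (4.16%) had an unadjusted p below 0.05. Leaving out repeat 1 of all 4 groups gave 5410 calls, and leaving out 1 library gave at most 3 calls (without control input repeat 1). The knockdown and control differences share no library, and over genes they correlated at 0.845 in repeat 2, 0.821 in repeat 3 and -0.07 in repeat 1. The spread of the differences over genes was an SD of 0.445 in knockdown and 0.225 in control cells in repeat 1, and 0.828 and 1.05 in repeat 2. Ribosomal protein mRNAs of both subunits together had medians of -0.13, -1.01 and -1.08 in knockdown and -0.01, -1.44 and -1.41 in control cells, and oxidative phosphorylation subunits -0.12, -0.07 and -0.14 in knockdown and -0.02, -0.71 and -0.77 in control cells. Genes of G2 and M phase had medians of -0.49, 0.70 and 0.62 in knockdown and 0.01, 1.28 and 1.15 in control cells, where the medians of all genes were 0.01, 0.53 and 0.52 in knockdown and 0.04, 0.60 and 0.58 in control cells. Iron-regulated mRNAs had control medians of -0.25, 2.24 and 2.24, and mRNAs with upstream reading frames 0.02, 1.22 and 1.17. Both were above 0 in repeats 2 and 3, as in knockdown cells. Control medians of glycolytic enzymes (0.07, -0.08 and -0.15) and of actins, tubulins and keratins (0.07, -0.09 and -0.08) were below 0 in repeats 2 and 3, unlike in knockdown cells. Differences of list medians between the cells were not tested.

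Of all genes, 219 (2.71%) were below 0 in every knockdown repeat and above 0 in every control repeat, and 245 (3.03%) the reverse. Genes named here come from the 5 with the smallest interaction p in each direction. PAK1IP1 was at 23.04, 21.1 and 23.97 FPKM in control input and 30.1, 30.5 and 28.8 FPKM on control polysomes, with differences of 0.37, 0.52 and 0.26 against -1.01, -1.38 and -1.56 in knockdown cells. The interaction was -1.69 (SE 0.30), for which limma gave an adjusted p of 0.841. TRMT10C was at 0.08, 0.93 and 0.89 in control cells and RAD51AP1 at 0.14, 0.92 and 0.96, for interactions of -1.83 and -1.91 (limma adjusted p = 0.841 for both). PSMA4 was at 0.25, 1.01 and 0.88, for an interaction of -1.44 (limma adjusted p = 0.841). In control cells these 4 genes were thus above 0 in every repeat. In the other direction, CES1 had control differences of 0.07, -0.09 and -0.18 against 0.45, 1.10 and 1.11 in knockdown cells. ALKBH5, an RNA demethylase, had -0.16, -0.06 and 0.05 in control and 0.43, 0.54 and 0.63 in knockdown cells. TAF6, a subunit of TFIID, had -0.13, -0.13 and -0.10 in control and 0.19, 0.74 and 1.01 in knockdown cells. The control libraries of these 3 genes were thus near level, and the interactions were 0.96, 0.59 and 0.77 (limma adjusted p = 0.977 for each). HGH1 and FAM241B, the other two of the 5 genes with the smallest p on this side, had interactions of 0.61 and 0.80, with the same adjusted p.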

How the data were processed

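Polysome and input RNA of METTL1 knockdown and control MHCC97H cells had been sequenced in 3 libraries per group. The authors deposited 1 FPKM value per gene and library; the submitters' processing notes list Bowtie2, HTSeq and GRCh38 with no version, and how the FPKM were scaled is not stated there. The table gives no depth. Requiring an FPKM of 1 in 3 or more libraries removed 0 genes.

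From these values log2(FPKM + 1) was computed and tested with limma 3.58.1 in R 4.3.3, with empirical Bayes moderation and an intensity trend, two-sided, Benjamini-Hochberg adjusted over all genes and called at 0.05. The polysome against input test used the 6 knockdown libraries and the interaction all 12. This scale understates differences of low genes. The fits were tested on simulated data with planted changes and independent noise of the same spread in every library. The repeats here do not have that form, so the simulation cannot show how the fits behave on them. Members, lists and tests were chosen with earlier results of these data known. Among them was that a control input library stood apart, which is why the 6-library fit was the main one. Knockdown input repeat 1 stood apart too, so the 6-library fit does not avoid such a library.

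Genes named were METTL1, WDR4, EGFR, CCNA2 and VEGFA, in each direction the 12 smallest p of genes with FPKM averaging 5 or more and no overlap (because none passed), the 2 with the smallest p of each of 26 lists with at least 5 listed members, and 5 per direction for the interaction; others are said to be picked after their values were seen. Some genes that this rule names are not reported here. Of 35 lists, 9 had fewer than 5 listed members: METTL1 with WDR4 and aminoacyl-tRNA synthetases 2 each, hepatocyte markers 4, leukocyte markers 1, and fibroblast and endothelial markers, histones, mitochondrially encoded mRNAs and noncoding transcripts 0. RefSeq spans and starts (GRCh38.p14) matched 99.9% of genes by symbol or a single synonym, and 4734 had a single annotated start. Same-numbered input and polysome libraries of knockdown cells deviated together from their group means, with correlations over genes of 0.418 to 0.610. Knockdown input and same-numbered control polysome libraries did so too (0.462, 0.424 and 0.444 in repeats 1, 2 and 3). The correlations thus do not show that input and polysome libraries share a culture, and the main fits left the repeat number out. Within knockdown cells, polysome repeat 3 and input repeat 2 correlated at 0.610 and polysome repeat 2 and input repeat 3 at 0.402. The pairing of repeats 2 and 3 with each other is therefore not settled. Alternatives were other scalings, pseudocount, filter, moderation, libraries and a repeat block. The TRAC-Seq tables were not used here.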

Additional observations from a re-analysis of the deposited data

Results flagged for a closer look

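In 12 of the named genes every knockdown repeat lay on one side of 0 and every control repeat on the other, so that polysome against input pointed in opposite directions in the 2 kinds of cells. The size given is the knockdown minus control difference of polysome minus input on the log2 scale. KRR1 and PAK1IP1 of ribosome assembly were at -1.39 and -1.69, RAD51AP1 at -1.91, TRMT10C at -1.83, the sulfatase ARSJ at -1.16, EIF5 at -1.26, SMARCC1 at -1.06 and PSMA4 at -1.44, all below 0 in knockdown and above 0 in control cells. LRP5 at 0.57, TAF6 at 0.77, HGH1 at 0.61 and FAM241B at 0.80 were above 0 in knockdown and below 0 in control cells. None of the 12 passed the limma test of that difference (adjusted p of 0.841 for PAK1IP1, RAD51AP1, TRMT10C and PSMA4 and 0.977 for the others). Over all 8074 genes 219 (2.71%) had the first pattern and 245 (3.03%) the second. Some of the named genes were chosen for knockdown polysome and input libraries that do not overlap, which fixes 1 sign in every knockdown repeat. PAK1IP1, RAD51AP1, TRMT10C, PSMA4, TAF6, HGH1 and FAM241B were also among those named for the smallest limma p of this same difference. The number of named genes with this pattern is therefore not a result.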

How the results depend on the processing

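The count of 0 limma calls for polysome against input in knockdown cells was also 0 with all 12 libraries in the fit, with equal medians, with quantile normalization, with a pseudocount of 0.1, among the genes with FPKM averaging 5 or more, without the intensity trend and with repeats 2 and 3 averaged, which left 4 genes under an unadjusted p of 0.05. With the replicate block it was 0 as well, and 1219 genes were under that p against 382 without the block, and the block changed no call of the interaction (0). Calls numbered 6890 without repeat 1 in both groups and ranged from 0 to 4715 when 1 library was left out, the 4715 without knockdown input repeat 1. For the interaction they numbered 5410 without repeat 1, and from 0 to 3 with 1 library left out, where 3 came without control input repeat 1 and 1 without knockdown input repeat 1. Genes with all polysome libraries above all input libraries (689) numbered 437 with equal medians, 421 with quantile normalization, 5714 without repeat 1 and 715 to 5084 with 1 library left out; those below (222) numbered 400, 365, 1724 and 234 to 1412. These overlap counts under other settings were chosen after the data were seen. Leaving out polysome repeat 1 alone gave 1489 and 473, and leaving out input repeat 1 the highest of each range. Without repeat 1, 78 of 79 named genes kept their direction and were called, where 6890 of all 8074 genes were called. Most of the 79 were chosen from these same values, so that number is not a result about them. WDR4 turned to -0.25. With equal medians METTL1 (-0.23), WDR4 (-0.27), EGFR (-0.15), CCNA2 (-0.16) and SDC4 (-0.0054) changed sign, and with quantile normalization METTL1 (-0.16), WDR4 (-0.18) and CCNA2 (-0.18). With 1 library left out METTL1 ranged from -0.10 to 0.66, WDR4 from -0.24 to 0.37 and CCNA2 from -0.009 to 0.72. The cause of these changes was not tested. The table gives no depth, and genes below an FPKM of 1 in any library are not seen.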

Other observations

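The MTRNR2L genes, nuclear copies of the mitochondrial 16S ribosomal RNA gene that code for humanin-like peptides, had the widest gaps between repeats 1 and 2 of all listed genes. MTRNR2L8 was at 616, 59.3 and 57.6 FPKM in knockdown input and 48.4, 862 and 789 FPKM on knockdown polysomes, and MTRNR2L1 at 319.9, 66.3 and 62.99 FPKM in input and 25.5, 564 and 476 FPKM on polysomes. All 4 listed members lay far below 0 in repeat 1 and far above 0 in repeats 2 and 3, MTRNR2L8 by -3.64, 3.84 and 3.75 and the others by less in repeats 2 and 3 (MTRNR2L10 by -3.54, 2.90 and 2.69 and MTRNR2L6 by -3.43, 2.89 and 2.94). In control cells the signs were the same, with MTRNR2L8 differing by -3.44, 4.31 and 4.19. Their near-identity to each other and to the mitochondrial gene makes the FPKM of each uncertain, and no mitochondrially encoded mRNA was listed beside them.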
